A study of Homo sapiens with 12 samples.

Results

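The proteasome is the protease complex that degrades ubiquitin-tagged proteins in the cytoplasm and nucleus, and its genes carry symbols that begin with PSM and a family letter. Of the 19973 genes of the deposited table, 50 had a symbol made of PSMA to PSMG and a number. Of these, 48 encode core subunits, cap subunits, activators, an inhibitor or assembly factors. The remaining matches, PSMC3IP and PSME3IP1, only carry a subunit's name in their own. They encode a meiotic recombination factor and a partner of the PSME3 activator, and they were kept out of every count. The rule reads symbols and uses no measured value, but it was set with earlier results of these data known.

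RNA was sequenced from H460 cells, a line from a large cell lung carcinoma, and A549 cells, a line from a lung adenocarcinoma, each labelled as a wild-type non-small cell lung cancer (NSCLC) line. The paper states, however, that both lines carry homozygous mutations that inactivate KEAP1. In each line 3 libraries came from non-treated cells (control) and 3 from cells given ISP-I, isovalerylspiramycin I, a macrolide of the spiramycin family, at 10 µM for 48 h. No library received a further agent, and the labels do not say whether the non-treated cells received the solvent. Nothing in the labels says that the 3 libraries of a group came from separate cultures, so the p-values measure the spread between these libraries, which may be technical.

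Levels are FPKM, that is reads on a gene per kilobase of its listed length and scaled to the library's total of reads on genes. Depth was 14225849 to 17874422 reads on genes per library, and every value was a whole number of reads. Libraries are numbered 1 to 3 within a group in the order of the table's columns, and the numbers do not pair libraries across groups. Keratins of epithelial cells were high in both lines (KRT8 at 168 to 748 FPKM over the 12 libraries). EPCAM and CDH1, which also define epithelium, were at 0 to 0.148 and 0 to 0.046 FPKM in H460 and at 1.31 to 2.08 and 0.605 to 5.18 FPKM in A549. Among the markers of other cells, the leukocyte list summed to at most 6.48 FPKM with CD3E at 0 in every library, the fibroblast list to at most 3.36, the endothelial list to at most 0.368 and the alveolar list to at most 0.318 FPKM. In the leukocyte list CD14 was the highest, at 5.13 to 6.43 FPKM in the H460 controls and 0.849 to 1.59 with ISP-I. In A549 CD14 stood at 0.725 to 1.32 FPKM in control and 0.0423 to 0.309 with ISP-I. H460 ISP-I library 3 stood apart from libraries 1 and 2 of its group. Relative to their mean, the proteasome genes with a transcript under 1500 bases and a group mean of at least 1 FPKM had a median ratio of 1.72 in it (n = 20 genes) and the longer ones 1.06 (n = 22 genes). The calls that depend on it are named with the counts for H460.

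A gene was said to have risen or fallen where limma on log2(FPKM + 1) gave a Benjamini-Hochberg adjusted p under 0.05 over all genes tested in that comparison, and a log2 change is always ISP-I minus control on that scale. Since FPKM is a share of a library, a lower value in these bulk samples cannot tell less RNA per cell of a gene from a larger share taken by other genes, nor from a change in which cells were present.

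In the complete proteasome, a barrel-shaped core particle is capped at its ends by a regulatory particle. The core is a stack of outer rings of alpha subunits (PSMA genes), which form the gate, and inner rings of beta subunits (PSMB genes). PSMB5, PSMB6 and PSMB7 carry the chymotrypsin-like, caspase-like and trypsin-like active sites. In cells exposed to interferon they can be replaced by PSMB8, PSMB9 and PSMB10, which gives the immunoproteasome, a form known for making peptides that suit antigen presentation. The cap holds a ring of ATPases (PSMC genes) that unfold the substrate and non-ATPase subunits (PSMD genes) that bind and remove ubiquitin. Other activators (PSME genes) open the core without ubiquitin, PSMF1 encodes a regulator first isolated as an inhibitor, and PSMG genes encode the chaperones that assemble the core. When proteasome activity falls, cells can raise most subunit genes together through the transcription factor NFE2L1, which acts at antioxidant response elements in their promoters.

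Promoters of 42 of the 48 genes were found in the RefSeq table for GRCh38.p14, each reaching from 250 bases before to 50 after the transcription start, and they were searched on both strands for 3 short motifs. TGACNNNGC, the core of the antioxidant response element, was in 13 of the 42 promoters (31.0%) and in 13.6% of all 27305 promoters of the table. CCAAT, the box bound by NF-Y, was in 19 (45.2%) against 35.7%, and GAAANNGAA, the core of the interferon-stimulated response element, in 7 (16.7%) against 8.29%. A match is a description of the letters and not a measured binding site. The stretches from 180 bases before to 30 after the start are shown for 6 genes whose changes are described with their values or as families, with motif letters in capitals.

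The promoter of PSMD14, a gene that rose in both lines, held a CCAAT on each strand, 48 and 45 bases before the start, which share letters and read CCAATTGG (chr2:161308245-161308454, plus strand). That of PSMB5, a gene that fell in both, held CCAAT 164 bases before the start (chr14:23035191-23035400, minus strand).
PSMD14: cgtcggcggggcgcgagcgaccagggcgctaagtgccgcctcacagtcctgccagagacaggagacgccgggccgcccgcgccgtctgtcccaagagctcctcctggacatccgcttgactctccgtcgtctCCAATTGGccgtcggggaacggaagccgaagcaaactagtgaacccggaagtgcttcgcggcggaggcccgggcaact
PSMB5: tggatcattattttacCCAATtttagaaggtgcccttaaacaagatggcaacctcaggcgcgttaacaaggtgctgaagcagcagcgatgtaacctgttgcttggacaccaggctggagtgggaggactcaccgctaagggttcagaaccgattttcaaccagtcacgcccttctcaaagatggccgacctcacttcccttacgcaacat

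PSMB10, PSME2 and PSMG4 held the same 9 letters, GAAAGCGAA, 21, 28 and 33 bases before their starts (chr16:67936821-67937030, minus strand; chr14:24146581-24146790, minus strand; chr6:3258767-3258976, plus strand), and PSME2 also TGACCCAGC at 175 bases before. The promoters of PSMB8 and PSMB9, the other inducible genes, held no GAAANNGAA. PSME4, whose change had opposite signs in the lines, held GCAGCGTCA, the reverse strand of an antioxidant response element core, 34 bases before its start (chr2:53970964-53971173, minus strand).
PSMB10: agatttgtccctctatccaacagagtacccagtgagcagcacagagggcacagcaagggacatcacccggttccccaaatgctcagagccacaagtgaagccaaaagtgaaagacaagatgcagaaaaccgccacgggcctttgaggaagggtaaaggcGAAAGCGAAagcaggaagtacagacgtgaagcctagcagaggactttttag
PSME2: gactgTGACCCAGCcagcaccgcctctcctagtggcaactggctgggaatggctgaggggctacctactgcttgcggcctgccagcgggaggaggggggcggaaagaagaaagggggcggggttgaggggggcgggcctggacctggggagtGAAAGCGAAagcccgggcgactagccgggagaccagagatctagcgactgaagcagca
PSMG4: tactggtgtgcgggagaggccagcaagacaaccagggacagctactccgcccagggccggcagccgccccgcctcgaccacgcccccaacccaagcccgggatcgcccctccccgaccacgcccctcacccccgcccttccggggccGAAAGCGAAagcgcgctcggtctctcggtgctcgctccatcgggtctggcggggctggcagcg
PSME4: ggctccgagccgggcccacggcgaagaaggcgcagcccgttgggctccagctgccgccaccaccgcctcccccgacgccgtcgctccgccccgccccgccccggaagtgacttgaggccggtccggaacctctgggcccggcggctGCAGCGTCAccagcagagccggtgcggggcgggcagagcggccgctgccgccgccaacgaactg

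Over the 41 genes left after PSMA8, PSMB11 and 5 genes inside read-through genes were set aside, the median of the group means was 28.8 FPKM in H460 control, 29.3 in H460 ISP-I, 33.8 in A549 control and 31.9 in A549 ISP-I. PSMG4 was the lowest of them in every group and PSMB9 the second lowest. The highest was PSMA7 in H460 control (193 FPKM), PSMB7 in H460 ISP-I (189.9), PSMB3 in A549 control (153) and PSMC4 in A549 ISP-I (181). Levels between genes also depend on the listed lengths, which join all exons of a gene, so that the 785-base transcript of PSMG4 was divided by a listed length of 10415 bases. The 5 lie partly or wholly inside a listed read-through gene on the same strand (PSMA2 100%, PSMA6 81.4%, PSMA1 67.0%, PSMB10 56.1% and PSMD9 28.8% of the transcript). They were listed at 0.169 to 5.53 FPKM in H460 control and 0.115 to 4.23 in A549 control, and how their reads were split was not tested. PSMA8 and PSMB11, the testis and thymus forms of core subunits, had 0 to 1 and 0 to 3 reads a library and were not tested.

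**Figure D1:**
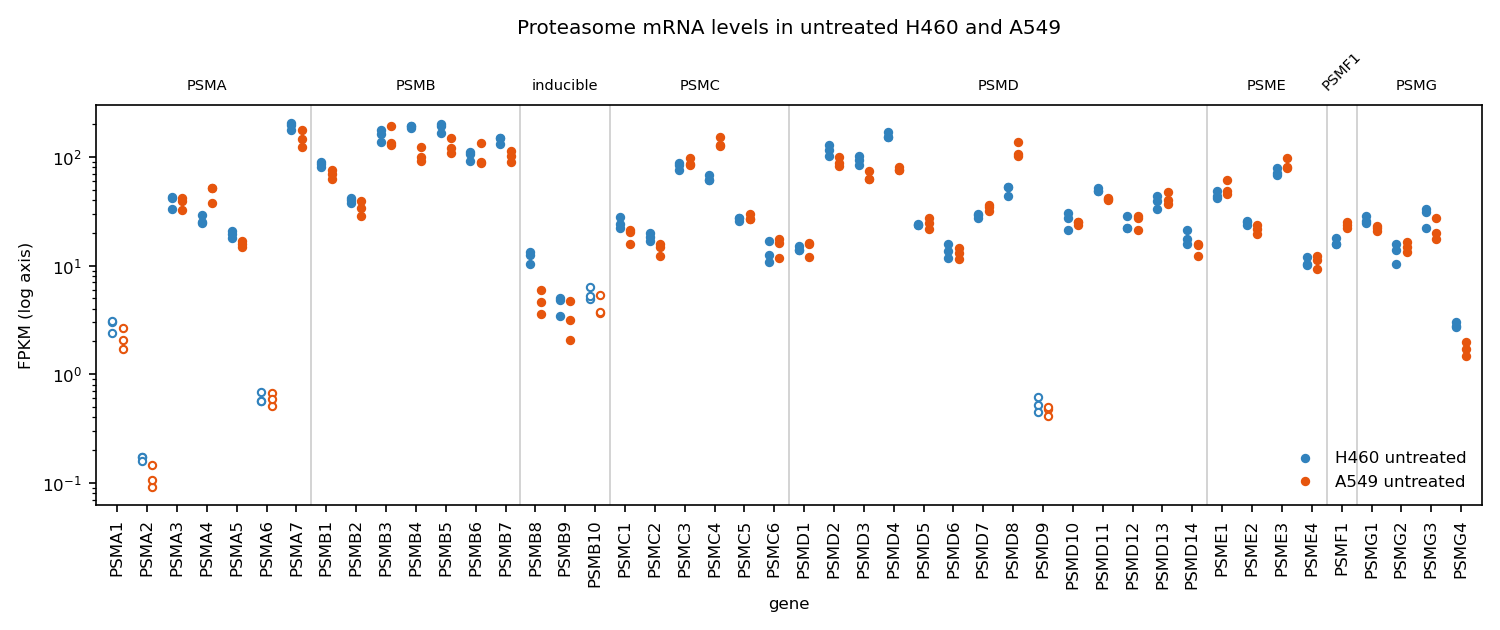
FPKM (log axis) of each proteasome gene in the 3 control libraries of H460 (blue) and of A549 (orange), 1 point per library, grouped by family, with the genes that lie inside a read-through gene drawn hollow and PSMA8 and PSMB11 not drawn. Most genes lie around the medians of 28.8 and 33.8 FPKM, with the inducible PSMB genes, PSMG4 and the hollow points below.

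After ISP-I, the H460 proteasome genes that passed the test mostly fell, and those of A549 moved both ways. In H460, 19 of 46 genes tested were lower (41.3%, against 41.5% of all genes tested) and 6 were higher (13.0%, against 27.6%). The median log2 change was -0.21 over the proteasome genes and -0.15 over all genes tested. A change of more than 2-fold was reached by 7 genes downward (15.2%, against 15.2% of all genes) and by 0 upward (against 10.5%). These 7 were PSMB4, PSMB5, PSMB8, PSMB9, PSMD2, PSMG3 and PSMG4. At an unadjusted p under 0.05, 27 of the 46 passed in either direction, and limma voom on recovered reads gave 0 genes higher and 10 lower by more than 2-fold with library totals, and 1 higher (PSME4) and 5 lower with median-of-ratios factors. Shares over all genes were not counted for the unadjusted p or for voom, in H460 or in A549, so these counts have no background.

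In A549, 12 of 45 genes tested were higher (26.7%, against 30.5% of all genes) and 9 were lower (20%, against 27.0%), with a median log2 change of 0.05 over the proteasome genes and 0.02 over all genes. None of the 45 passed 2-fold in limma (0 higher, against 4.2% of all genes, and 0 lower, against 3.51%), or in voom, while 25 had an unadjusted p under 0.05 in limma. Without A549 control library 3, 18 genes were higher and 11 lower, all 21 calls were kept and PSMA4, PSMA7, PSMB1, PSMB6, PSMC1, PSMD3, PSMD4 and PSMG3 were added. Here and below, shares over all genes were not counted for fits that leave out a library. With all libraries, 14 genes passed in neither line, with log2 changes of -0.61 to 0.41 in H460 and -0.23 to 0.20 in A549. They were PSMA3, PSMA6, PSMB1, PSMB6, PSMC1, PSMC2, PSMC3, PSMD3, PSMD4, PSMD9, PSMD12, PSMD13, PSME2 and PSMG2. The shares of genes that fell were thus close to the background in H460, and the shares that rose were below it in H460 and near it in A549.

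The H460 split moved with the scale between libraries. When libraries were scaled by median-of-ratios factors in place of the read total, the median of all genes in H460 moved from -0.15 to 0.02, and 13 proteasome genes of 45 were higher and 12 lower (35.0% and 32.1% of all genes), with PSMB5 and PSMG3 the 2 that remained lower by more than 2-fold. The 6 genes that had risen were all kept, as were 12 of the 19 that had fallen, while PSMA4, PSMA7, PSMB2, PSMB3, PSMB10 and PSMG1 no longer passed and PSMA2 fell below the filter. PSMA5, PSMB7, PSMC2, PSMD1, PSMD11, PSMD12 and PSMF1 were added to the higher genes. Without H460 ISP-I library 3, 25 genes were lower and 7 higher, and 24 of the calls were kept. PSMA4 was lost, PSMD12 was added to the higher genes, and PSMA3, PSMB1, PSMB6, PSMC3, PSMC5, PSMD4 and PSME2 were added to the lower ones.

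**Figure D2:**
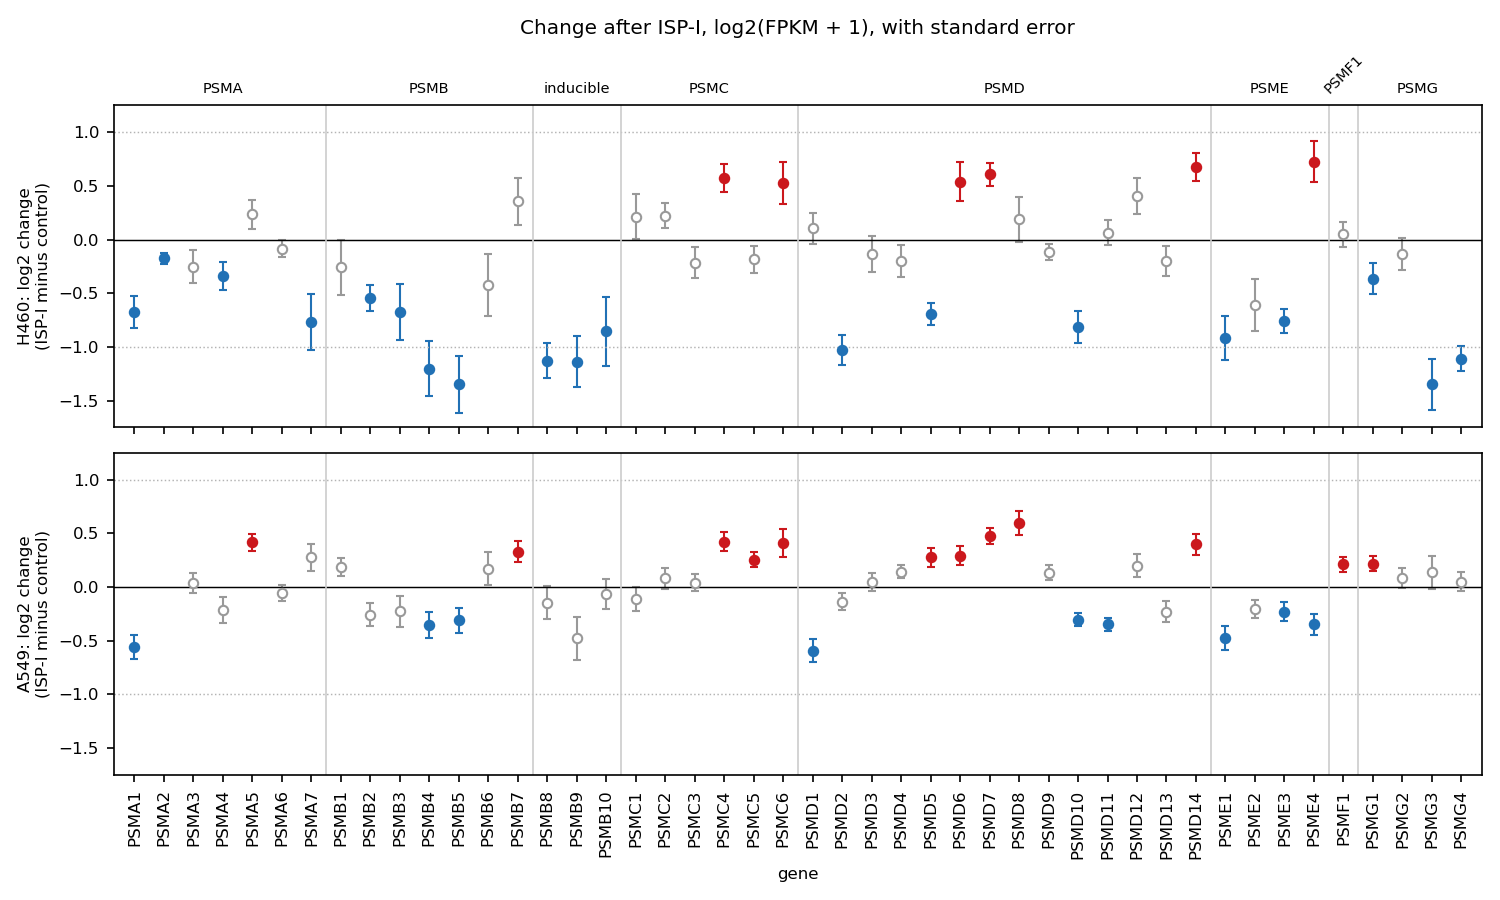
Log2 change after ISP-I (error bars, SE) of each proteasome gene tested in H460 and in A549, grouped by family, with red points for genes that rose, blue for genes that fell and hollow grey for those that did not pass. Dotted lines mark a change of 2-fold, which 7 genes passed downward in H460 and 0 in A549.

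Among the alpha ring genes, 4 of 7 fell in H460 and 0 rose, with a median log2 change of -0.25. In A549, 1 of 6 rose and 1 fell, with a median of -0.01. Of all genes tested, 41.5% fell and 27.6% rose in H460, with a median of -0.15. In A549, 27.0% of all genes fell and 30.5% rose, with a median of 0.02. These values are the background for every family below. The family summed to 281 ± 16.9 FPKM (SD, n = 3) in H460 control and 198 ± 58 with ISP-I, and to 252 ± 18 and 280.1 ± 12.9 in A549.

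PSMA7 (ENSG00000101182, chr20:62136733-62143440, minus strand) was the alpha gene with the largest fall in H460. It stood at 203, 198 and 177 FPKM in the H460 controls and 95.9, 84 and 178 with ISP-I (log2 change -0.77, SE 0.26, limma adjusted p = 0.0275). ISP-I library 3 was as high as the lowest control, so the groups overlapped, and the call was lost when any single library other than that one was left out (limma adjusted p from 0.0538 to 0.103, log2 change -0.83 to -0.56). In A549 it stood at 146, 123 and 178 FPKM in the A549 controls and 174, 189 and 173 with ISP-I, with overlapping groups (log2 change 0.27, SE 0.13, limma adjusted p = 0.0993), and it passed without control library 3 (log2 change 0.41, limma adjusted p = 0.000564).

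PSMA5 (ENSG00000143106, chr1:109399042-109426448, minus strand), another ring subunit, was the only alpha gene that rose in A549, at 14.7, 15.8 and 16.8 FPKM in the A549 controls and 19.9, 21.8 and 22.4 with ISP-I. All 3 treated libraries lay above all 3 controls (log2 change 0.41, SE 0.08, limma adjusted p = 0.0022). Its H460 values were 20.9, 19.5 and 18 FPKM in the H460 controls and 21.7, 20.7 and 27.1 with ISP-I, which overlapped (log2 change 0.23, SE 0.13, limma adjusted p = 0.149).

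PSMA1 (ENSG00000129084, chr11:14504874-14643635, minus strand) fell in each line, but on 49 to 139 reads a library and with part of its transcript inside a read-through gene. It measured 2.37, 3.0 and 3.06 FPKM in the H460 controls and 1.14, 1.14 and 1.92 with ISP-I (log2 change -0.68, SE 0.15, limma adjusted p = 0.00366). The values in A549 were 2.07, 2.63 and 1.69 FPKM in the A549 controls and 1.14, 1.07 and 1.12 with ISP-I (log2 change -0.56, SE 0.11, limma adjusted p = 0.00297), and the groups did not overlap in either line. PSMA4 also fell in H460 (log2 change -0.34, SE 0.13, limma adjusted p = 0.0421), a call lost without ISP-I library 3 (log2 change -0.28, limma adjusted p = 0.0619) and with the transcript length trend removed (log2 change -0.22, limma adjusted p = 0.093). PSMA2 fell on 3 to 22 reads over the H460 libraries (log2 change -0.17, SE 0.05, limma adjusted p = 0.0127). For PSMA3 and PSMA6 the log2 changes in H460 were -0.25 and -0.09 and did not pass, although PSMA3 did without ISP-I library 3 (log2 change -0.37, limma adjusted p = 0.0276).

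Of the 7 constitutive beta ring genes, 4 fell and 0 rose in H460 (PSMB2, PSMB3, PSMB4 and PSMB5), with a median log2 change of -0.55. Without ISP-I library 3, 6 of the 7 fell. In A549, 2 fell (PSMB4 and PSMB5) and 1 rose (PSMB7), with a median of -0.23. Of all genes, 41.5% fell in H460 and 27.0% in A549. The sum of the 7 went from 907 ± 64.2 to 642 ± 250.3 FPKM (SD, n = 3) in H460, where ISP-I library 3 alone reached 928, and from 693 ± 121 to 659.9 ± 32.1 in A549.

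PSMB5 (ENSG00000100804, chr14:23016543-23035230, minus strand), which carries the chymotrypsin-like site that proteasome drugs bind, had the largest fall among them in H460. It measured 192, 202 and 167 FPKM in the H460 controls and 64.5, 51.7 and 114 with ISP-I, so that the treated mean was 0.411 times the control mean (log2 change -1.35, SE 0.27, limma adjusted p = 0.00189). Library 3 was the highest of the treated libraries and still lay below each control. A549 stood at 119.8, 109 and 149.96 FPKM in the A549 controls and 99.4, 102 and 99.8 with ISP-I, also without overlap and at 0.796 times the control mean (log2 change -0.31, SE 0.11, limma adjusted p = 0.0433). The A549 call was lost without control library 1 and without each of the 3 ISP-I libraries (limma adjusted p from 0.0687 to 0.119, log2 change -0.34 to -0.30). It was also lost under median-of-ratios scaling (log2 change -0.33, limma adjusted p = 0.0522).

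PSMB4 (ENSG00000159377, chr1:151399560-151401937, plus strand), a ring subunit without catalytic activity, followed the same pattern at 192, 193 and 184 FPKM in the H460 controls and 68.2, 62 and 129 with ISP-I (log2 change -1.20, SE 0.26, limma adjusted p = 0.00288). Its A549 values were 99.2, 91.1 and 124 FPKM in the A549 controls and 77.3, 89.6 and 76.9 with ISP-I (log2 change -0.35, SE 0.12, limma adjusted p = 0.0339). The treated libraries lay below the controls in both lines, and the A549 call was lost without control library 1, ISP-I library 1 or ISP-I library 3 (limma adjusted p from 0.0571 to 0.117, log2 change -0.39 to -0.32). PSMB2 fell in H460 (log2 change -0.55, SE 0.12, limma adjusted p = 0.00344), as did PSMB3 (log2 change -0.67, SE 0.26, limma adjusted p = 0.0469), both ring subunits whose A549 changes of -0.26 and -0.23 did not pass.

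The other catalytic genes of the constitutive core did not pass in H460. PSMB6 (ENSG00000142507, chr17:4796144-4798502, plus strand), the caspase-like subunit, stood at 107, 111 and 92.6 FPKM in the H460 controls and 63.4, 54.7 and 129.7 with ISP-I (log2 change -0.42, SE 0.29, limma adjusted p = 0.223). ISP-I library 3 exceeded every control while the other treated libraries lay below them, and without it the fall passed (log2 change -0.80, limma adjusted p = 0.000273). The A549 values were 90.5, 88.6 and 134 FPKM in the A549 controls and 108, 125 and 113 with ISP-I (log2 change 0.17, SE 0.15, limma adjusted p = 0.381), and the 95% interval of the log2 change ran from -0.19 to 0.52. Without control library 3, the highest of the A549 libraries, the A549 rise passed (log2 change 0.36, limma adjusted p = 0.00043).

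PSMB7 (ENSG00000136930, chr9:124353465-124415444, minus strand), the trypsin-like subunit, measured 149, 151 and 131 FPKM in the H460 controls and 165, 145 and 260.3 with ISP-I, with overlapping groups (log2 change 0.36, SE 0.22, limma adjusted p = 0.175). It rose in A549, at 102, 90.5 and 114 FPKM in the A549 controls and 125, 136 and 122 with ISP-I (log2 change 0.33, SE 0.10, limma adjusted p = 0.018), where every treated library exceeded every control. That call was lost without control library 2, ISP-I library 1 or ISP-I library 2 (limma adjusted p from 0.0513 to 0.0786, log2 change 0.25 to 0.34).

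A ratio of genes within a library does not depend on how libraries are scaled, and PSMB5 was lower relative to PSMB7 and PSMB6 in every treated library. PSMB5 per 100 of PSMB7 in FPKM was 129, 134 and 127 in the H460 controls and 39.2, 35.7 and 43.8 with ISP-I, with library 3 close to the other treated libraries. In A549 the ratio was 118, 120.2 and 132 in the controls and 79.4, 75 and 81.5 with ISP-I. The treated libraries lay below the controls in each line (two-sided exact permutation p = 0.1 in each line, the smallest that 3 against 3 libraries can give). PSMB5 per 100 of PSMB6 likewise went from 181 ± 1.52 to 94.7 ± 6.85 in H460 and from 122 ± 10.3 to 87.3 ± 5.25 in A549 (SD, n = 3, exact permutation p = 0.1 in each line). PSMB6 per 100 of PSMB7 went from 72 ± 1.6 to 42.1 ± 6.76 in H460 (exact permutation p = 0.10). In A549 it was 102 ± 14.8 and 90.2 ± 3.35, with overlapping groups (exact permutation p = 0.30).

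**Figure D3:**
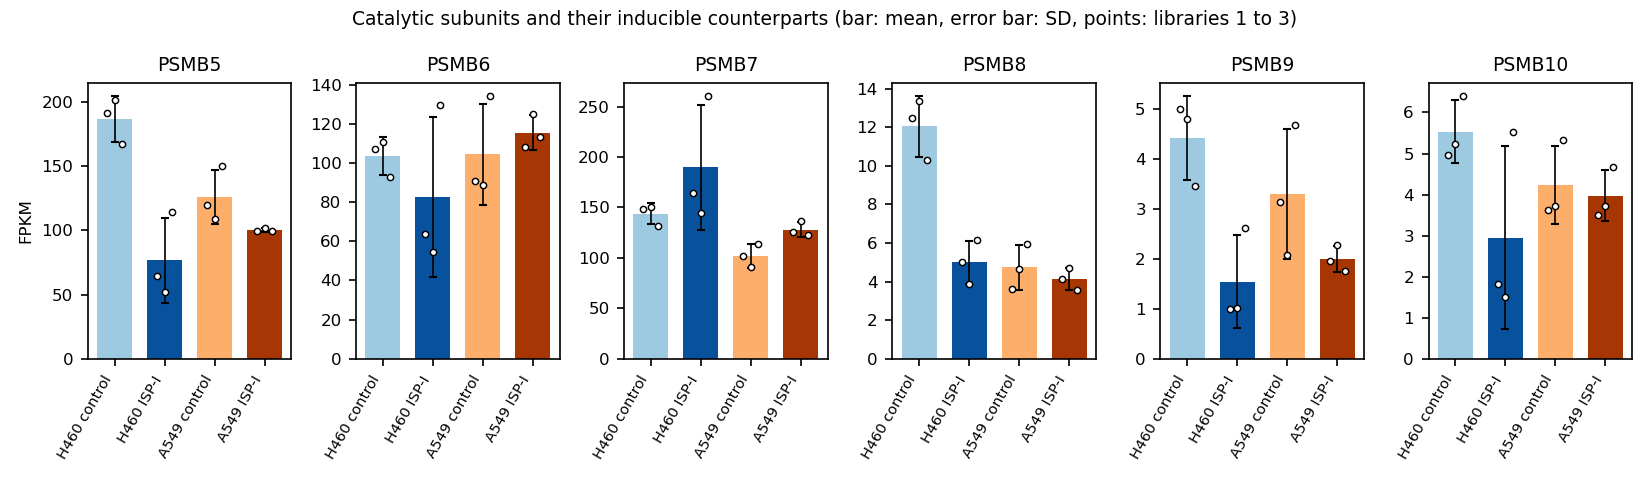
FPKM of the constitutive catalytic genes PSMB5, PSMB6 and PSMB7 and of the inducible PSMB8, PSMB9 and PSMB10 in the 4 groups (bars, mean of 3 libraries; error bars, SD; points, libraries). The H460 bars of PSMB5, PSMB8 and PSMB9 drop with ISP-I without overlap, and those of PSMB7 do not.

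The 3 inducible catalytic genes all fell in H460, with a median log2 change of -1.13, and 0 of 3 passed in A549, with a median of -0.15. Of all genes, 41.5% fell in H460 and 27.0% in A549. The 3 genes were low throughout, their sum being 22 ± 1.66 FPKM in H460 control and 9.51 ± 4.19 with ISP-I, and 12.3 ± 3.21 and 10.1 ± 0.568 in A549 (SD, n = 3).

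PSMB8 (ENSG00000204264, chr6:32840717-32844679, minus strand), the partner that takes the place of PSMB5, measured 12.5, 13.4 and 10.3 FPKM in the H460 controls and 5.0, 3.9 and 6.14 with ISP-I (log2 change -1.13, SE 0.16, limma adjusted p = 0.000329). No treated library reached a control, and the treated mean was 0.416 times the control mean. Its A549 values of 3.62, 4.63 and 5.95 FPKM in control and 4.12, 4.71 and 3.55 with ISP-I overlapped (log2 change -0.15, SE 0.15, limma adjusted p = 0.436).

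PSMB9 (ENSG00000240065, chr6:32844136-32859851, plus strand), which replaces PSMB6, overlaps the end of PSMB8 on the opposite strand, and the strand setting of the counting is not given in the sources used here. On 56 to 244 reads a library, it measured 5.0, 4.81 and 3.46 FPKM in the H460 controls and 1.01, 1.01 and 2.62 with ISP-I (log2 change -1.14, SE 0.24, limma adjusted p = 0.00266), again without overlap. A549 stood at 3.14, 2.08 and 4.69 FPKM in the A549 controls and 1.97, 2.27 and 1.75 with ISP-I, where control library 2 fell within the treated range (log2 change -0.48, SE 0.20, limma adjusted p = 0.0704) and without it the fall passed (log2 change -0.70, limma adjusted p = 0.00592). Without control library 3, the highest A549 control, the change was smaller and did not pass (log2 change -0.26).

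PSMB10 (ENSG00000205220, chr16:67934506-67936864, minus strand), which replaces PSMB7, had 41 to 155 reads a library and lies partly inside a read-through gene. It measured 4.96, 5.22 and 6.4 FPKM in the H460 controls and 1.82, 1.51 and 5.51 with ISP-I (log2 change -0.86, SE 0.32, limma adjusted p = 0.0411). ISP-I library 3 lay among the controls, and the call was lost under median-of-ratios scaling and without any single library other than that one (limma adjusted p from 0.0741 to 0.143, log2 change -0.92 to -0.60). In A549 the values were 3.63, 3.72 and 5.33 FPKM in the A549 controls and 3.5, 3.72 and 4.67 with ISP-I and overlapped (log2 change -0.07, SE 0.14, limma adjusted p = 0.713).

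The ratios to the subunits they replace differed by pair. PSMB8 per 100 of PSMB5 was 6.43 ± 0.24 in H460 control and 6.89 ± 1.31 with ISP-I, and 3.75 ± 0.649 and 4.1 ± 0.528 in A549 (SD, n = 3, exact permutation p = 0.50 and 0.60), with overlapping groups in both lines. PSMB9 per 100 of PSMB6 went from 4.25 ± 0.474 to 1.82 ± 0.22 in H460 and from 3.1 ± 0.656 to 1.73 ± 0.154 in A549 (exact permutation p = 0.1 in each line). PSMB10 per 100 of PSMB7 went from 3.89 ± 0.847 to 1.42 ± 0.602 in H460 (exact permutation p = 0.10) and from 4.12 ± 0.557 to 3.12 ± 0.608 in A549 (exact permutation p = 0.20).

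Among the ATPase genes of the cap, those that passed with all libraries rose. Of 6 PSMC genes, 2 rose and 0 fell in H460 (median log2 change 0.22), and 3 rose and 0 fell in A549 (median 0.17). Of all genes, 27.6% rose in H460 and 30.5% in A549. Without H460 ISP-I library 3, 2 rose and 2 fell in H460 (the latter PSMC3 and PSMC5). Without A549 control library 3, 3 rose and 1 fell in A549 (the latter PSMC1). The sum of the 6 genes was 229 ± 6.35 FPKM in H460 control and 261 ± 28.8 with ISP-I, and 302 ± 17 and 359 ± 8.14 in A549 (SD, n = 3). On the opposite strand, NRDE2 covers 83.2% of the PSMC1 transcript, and the strand setting of the counting is not given in the sources used here.

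PSMC4 (ENSG00000013275, chr19:39971165-39981764, plus strand) had the largest rise of the ATPases in each line. It measured 60.8, 67.7 and 61.1 FPKM in the H460 controls and 99.1, 83.6 and 102 with ISP-I (log2 change 0.57, SE 0.13, limma adjusted p = 0.00409). A549 cells held 125, 129 and 153 FPKM in control and 179, 183 and 182 with ISP-I (log2 change 0.42, SE 0.09, limma adjusted p = 0.0040). All treated libraries exceeded all controls in both lines, including H460 ISP-I library 3. PSMC6 also rose in H460 (log2 change 0.53, SE 0.19, limma adjusted p = 0.0382) and in A549 (log2 change 0.41, SE 0.13, limma adjusted p = 0.0268). Its groups overlapped in H460 and not in A549. PSMC5 rose in A549 (log2 change 0.25, SE 0.07, limma adjusted p = 0.0153) and did not pass in H460 (log2 change -0.19, SE 0.12, limma adjusted p = 0.207), where it fell without ISP-I library 3 (log2 change -0.28, limma adjusted p = 0.0273). The changes differed between the lines (log2 difference -0.44, SE 0.13, limma adjusted p = 0.0148).

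Of the 14 PSMD genes, 3 rose and 3 fell in H460 (median log2 change -0.03), and 5 rose and 3 fell in A549 (median 0.14). PSMD6 and PSMD7, lid subunits, and PSMD14 rose in each line, and PSMD10, a chaperone of the ATPase ring, fell in each.

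PSMD14 (ENSG00000115233, chr2:161308425-161411717, plus strand), the protease of the lid that removes ubiquitin chains from substrates, had the largest rise of the PSMD genes in H460. It stood at 21, 15.8 and 17.4 FPKM in the H460 controls and 27, 30.3 and 30.6 with ISP-I (log2 change 0.67, SE 0.13, limma adjusted p = 0.00191). A549 had 15.9, 15.4 and 12.3 FPKM in the A549 controls and 18.8, 19.3 and 19.8 with ISP-I (log2 change 0.40, SE 0.10, limma adjusted p = 0.00806). Treated libraries exceeded the controls in both lines, with mean ratios of 1.62 and 1.33. PSMD7, its partner in the lid, rose to a mean of 44.5 ± 0.734 from 28.8 ± 1.28 FPKM in H460 (log2 change 0.61, SE 0.11, limma adjusted p = 0.000934). It rose to 47.8 ± 1.78 from 34.1 ± 2.1 in A549 (log2 change 0.47, SE 0.07, limma adjusted p = 0.000628). PSMD6 had log2 changes of 0.54 (limma adjusted p = 0.0266) and 0.29 (limma adjusted p = 0.0204).

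PSMD2 (ENSG00000175166, chr3:184299198-184309050, plus strand), a large scaffold subunit that docks ubiquitin shuttles, had the largest fall of the PSMD genes in H460. It measured 115, 127 and 101 FPKM in the H460 controls and 63.3, 52.3 and 51.4 with ISP-I (log2 change -1.03, SE 0.14, limma adjusted p = 0.000265), with every treated library near 0.485 times the control mean and library 3 no exception. Its values in A549 were 83, 87.6 and 101 FPKM in the A549 controls and 81.4, 82.3 and 82.1 with ISP-I and did not pass (log2 change -0.14, SE 0.08, limma adjusted p = 0.186), although the groups did not overlap.

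PSMD1 (ENSG00000173692, chr2:231056845-231173116, plus strand), the other large scaffold subunit, passed in A549 and not in H460. It measured 15.2, 13.8 and 13.8 FPKM in the H460 controls and 16.8, 17.4 and 12.5 with ISP-I, with overlapping groups (log2 change 0.10, SE 0.14, limma adjusted p = 0.536). In A549 the values were 15.8, 16 and 12 FPKM in the A549 controls and 9.25, 9.22 and 9.25 with ISP-I (log2 change -0.60, SE 0.11, limma adjusted p = 0.0018), every treated library lying below every control. PSMD11 (ENSG00000108671, chr17:32444379-32483319, plus strand), a lid subunit that holds the cap and core together, behaved likewise. H460 had 49.1, 51.4 and 48.1 FPKM in control and 55.2, 53.1 and 47.2 with ISP-I (log2 change 0.06, SE 0.12, limma adjusted p = 0.652), and A549 had 40.2, 41.4 and 41.2 and 31.6, 31.4 and 32.9 (log2 change -0.35, SE 0.06, limma adjusted p = 0.0013).

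PSMD8 (ENSG00000099341, chr19:38374536-38383824, plus strand), a small lid subunit, had the largest rise of the PSMD genes in A549, at 107, 103 and 138 FPKM in the A549 controls and 169, 180.1 and 175 with ISP-I (log2 change 0.60, SE 0.11, limma adjusted p = 0.0022), with treated libraries all above the controls. Its H460 values of 44, 52.3 and 53.4 FPKM in control and 51.9, 44.1 and 79.8 with ISP-I overlapped, and only ISP-I library 3 exceeded the controls (log2 change 0.19, SE 0.21, limma adjusted p = 0.446).

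The genes PSMD5, PSMD9 and PSMD10 encode chaperones of the ATPase ring and not subunits of the finished cap. PSMD5 fell in H460 from 23.8 ± 0.201 to 14.4 ± 0.77 FPKM (log2 change -0.69, SE 0.10, limma adjusted p = 0.000384) and rose in A549 from 24.5 ± 2.86 to 29.7 ± 1.07 (log2 change 0.28, SE 0.09, limma adjusted p = 0.0286). PSMD10 fell in both, with log2 changes of -0.81 (limma adjusted p = 0.00147) and -0.31 (limma adjusted p = 0.0034). PSMD9, at 53 to 103 reads a library, had log2 changes of -0.12 and 0.13 and did not pass.

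Summed over their genes, with PSMD5, PSMD9 and PSMD10 counted with the cap, core FPKM per cap FPKM was 1.43, 1.37 and 1.31 in the H460 controls and 0.835, 0.811 and 1.28 with ISP-I. Library 3 lay just under the lowest control and libraries 1 and 2 well below the controls. A549 held 1.06, 0.982 and 1.19 in control and 0.925, 0.979 and 0.92 with ISP-I, where the highest treated library lay just under the lowest control. The groups were thus apart in each line, by little (exact permutation p = 0.1 in each line). The core sum went from 1211 ± 78 to 849 ± 312 FPKM in H460, and the cap sum from 883 ± 30.8 to 856 ± 81.3. In A549 the core sum went from 958 ± 140.0 to 950.1 ± 45.5 and the cap sum from 886 ± 45.8 to 1009 ± 17.7 (SD, n = 3).

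The core genes had a median transcript of 1017 bases (n = 17) and the cap genes of 1950.5 bases (n = 20), and transcript length moved with the difference between H460 ISP-I library 3 and the rest of its group. Over 42 proteasome genes, the ratio of library 3 to the mean of libraries 1 and 2 had a Spearman rho of -0.74 with transcript length, and -0.68 over the 6646 genes that averaged 5 FPKM or more, points that share the same 3 libraries. A549 control library 3 also stood higher for short transcripts, with median ratios of 1.24 for short (n = 21) and 1.04 for long (n = 22) proteasome genes and a rho of -0.53 over 43 genes. The GC content of the transcript moved with these ratios too. For H460 ISP-I library 3 the rho with GC was 0.58 over the proteasome genes and 0.45 over the 6646 genes. In A549 control library 3 it was 0.76 and 0.695, larger in size than the rho with length (-0.53 and -0.51). Whether length or GC set these differences was not tested. With the trend over transcript length removed from the fit, an alternative added after seeing the data, 22 of the H460 calls were kept, among them every fall of a PSMB gene. PSMA2, PSMA4 and PSMG1 were lost, and PSMA5, PSMB7, PSMC2, PSMD8, PSMD12 and PSME2 were added, so that 11 genes rose in place of 6. Shares over all genes were not counted with the length trend removed. In A549, 19 calls were kept, PSMD6 and PSMF1 were lost, and PSMB3, PSMB9, PSMD13 and PSME2 were added.

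**Figure D4:**
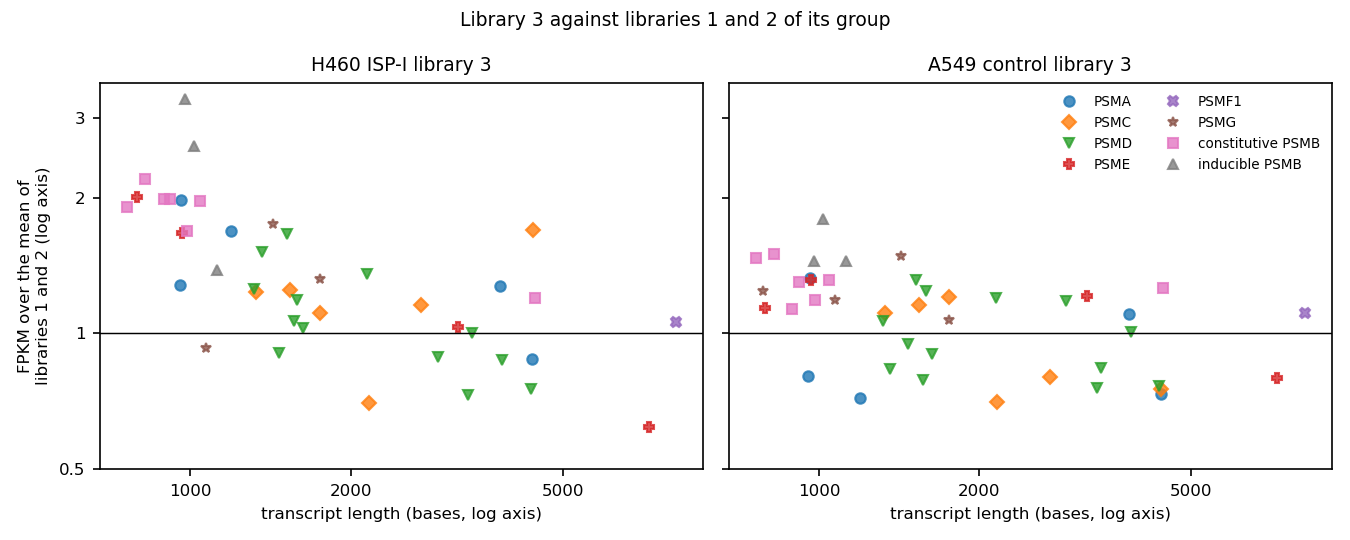
Ratio of library 3 to the mean of libraries 1 and 2 of its group (log axis) against transcript length in bases (log axis) for each proteasome gene, in H460 ISP-I and A549 control. In H460 ISP-I most short transcripts sit above 1, with a median of 1.72, and the long ones scatter around 1.06.

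Among the alternative activators, 2 of 4 PSME genes fell and 1 rose in H460 (median log2 change -0.68), and 3 fell and 0 rose in A549 (median -0.29). Of all genes, 41.5% fell in H460 and 27.0% in A549. PSME1 (ENSG00000092010, chr14:24136163-24138967, plus strand), which forms the interferon-induced activator ring together with PSME2, measured 43.7, 48.5 and 42.3 FPKM in the H460 controls and 21.7, 17.5 and 32.7 with ISP-I (log2 change -0.92, SE 0.21, limma adjusted p = 0.00391). In A549 it stood at 48.8, 45.6 and 61.9 FPKM in the A549 controls and 36.6, 39.2 and 34.8 with ISP-I (log2 change -0.48, SE 0.11, limma adjusted p = 0.00734). The groups did not overlap in either line. Its partner PSME2 did not pass in H460 (log2 change -0.61, SE 0.24, limma adjusted p = 0.0506) or in A549 (log2 change -0.21, SE 0.08, limma adjusted p = 0.057), with signs like those of PSME1. Its H460 libraries held 25.6, 25.1 and 23.4 FPKM in control and 12.7, 12.3 and 25.1 with ISP-I, and the fall passed without library 3 (log2 change -0.93, limma adjusted p = 3.05e-05) and with the length trend removed (log2 change -0.36, limma adjusted p = 0.0406). PSME3, the activator of the nucleus, fell in H460 (log2 change -0.76, SE 0.11, limma adjusted p = 0.000425) and in A549 (log2 change -0.23, SE 0.09, limma adjusted p = 0.0499), the latter lost under median-of-ratios scaling.

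PSME4 (ENSG00000068878, chr2:53864069-53970993, minus strand), a large activator known for histone degradation in germ cells and after DNA damage, changed in opposite directions. It measured 12, 10.3 and 10 FPKM in the H460 controls and 20.2, 23 and 13.4 with ISP-I (log2 change 0.73, SE 0.19, limma adjusted p = 0.00846), and ISP-I library 3 was the lowest of the treated libraries but above each control. A549 stood at 11.1, 12.2 and 9.32 FPKM in the A549 controls and 7.89, 8.62 and 8.33 with ISP-I (log2 change -0.35, SE 0.10, limma adjusted p = 0.0164), every treated library lying below every control. The A549 call was lost without control library 1 or 2 and without ISP-I library 1 or 3 (limma adjusted p from 0.0509 to 0.066, log2 change -0.35 to -0.27).

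PSMF1 (ENSG00000125818, chr20:1113240-1189415, plus strand), the inhibitor named above, measured 15.9, 18.1 and 15.9 FPKM in the H460 controls and 18.1, 15.7 and 17.9 with ISP-I, with overlapping groups (log2 change 0.05, SE 0.11, limma adjusted p = 0.723). It rose in A549, at 22.1, 23.4 and 25.3 FPKM in the A549 controls and 26.8, 27.8 and 27.7 with ISP-I (log2 change 0.21, SE 0.07, limma adjusted p = 0.0314). The rise was 1.16-fold on the means, and it did not pass under median-of-ratios scaling or without any single library other than control library 3 (limma adjusted p from 0.0705 to 0.104, log2 change 0.17 to 0.22).

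The core assembly chaperones work as the pairs PSMG1 with PSMG2, which build the alpha ring, and PSMG3 with PSMG4. In H460, 3 of the 4 fell and 0 rose (median log2 change -0.74), while in A549 1 rose and 0 fell (median 0.11). Of all genes, 41.5% fell in H460 and 30.5% rose in A549.

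PSMG3 (ENSG00000157778, chr7:1567332-1571005, minus strand) measured 31.4, 33.2 and 22.2 FPKM in the H460 controls and 9.64, 7.94 and 15.3 with ISP-I (log2 change -1.35, SE 0.24, limma adjusted p = 0.00102), without overlap. Its A549 values of 19.8, 17.4 and 27.6 FPKM in control and 22, 26.1 and 22.1 with ISP-I overlapped (log2 change 0.14, SE 0.16, limma adjusted p = 0.482), and a rise passed without control library 3 (log2 change 0.32, limma adjusted p = 0.00578). Control library 3 was the lowest H460 control, and ISP-I library 3 the highest treated library.

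PSMG4 (ENSG00000180822, chr6:3231403-3303373, plus strand), its partner, stood at 2.76, 2.74 and 3.02 FPKM in the H460 controls and 0.634, 0.663 and 1.06 with ISP-I (log2 change -1.11, SE 0.12, limma adjusted p = 4.77e-05), a mean ratio of 0.277 on 115 to 469 reads over the 12 libraries. The A549 libraries held 1.71, 1.48 and 1.98 FPKM in control and 1.81, 1.9 and 1.71 with ISP-I, and they overlapped (log2 change 0.05, SE 0.09, limma adjusted p = 0.671). The partners PSMG3 and PSMG4 were thus both more than 2-fold lower in H460 and did not pass in A549 with all libraries.

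PSMG1 (ENSG00000183527, chr21:39174769-39183488, minus strand) measured 28.7, 25.7 and 24.5 FPKM in the H460 controls and 19.2, 17.5 and 24.2 with ISP-I (log2 change -0.37, SE 0.14, limma adjusted p = 0.0468), where ISP-I library 3 lay just under the lowest control. In A549 it stood at 22.3, 21 and 23.2 FPKM in the A549 controls and 26.1, 26.8 and 24.8 with ISP-I and rose (log2 change 0.22, SE 0.07, limma adjusted p = 0.0252). Neither call held under median-of-ratios scaling. Only the omission of ISP-I library 3 left the H460 call in place (in the others limma adjusted p from 0.0706 to 0.151, log2 change -0.41 to -0.27), and in A549 only that of control library 3 or ISP-I library 3 (limma adjusted p from 0.0562 to 0.10, log2 change 0.18 to 0.22). PSMG2, its partner, had log2 changes of -0.14 in H460 and 0.08 in A549 and did not pass.

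Between the lines, the change after ISP-I differed for 16 of 45 genes by the interaction term over all 12 libraries. It was more negative in H460 for 13 (28.9%, against 34.7% of all genes tested) and more positive for 3 (6.67%, against 18.6%), with a median difference of -0.29 over the proteasome genes and -0.16 over all genes. PSMG3 (log2 difference -1.48, SE 0.32, limma adjusted p = 0.00189) and PSMG4 (log2 difference -1.16, SE 0.14, limma adjusted p = 3.02e-05) led the negative side. PSME4 (log2 difference 1.08, SE 0.23, limma adjusted p = 0.00185), PSMD1 (log2 difference 0.70, SE 0.18, limma adjusted p = 0.00659) and PSMD11 (log2 difference 0.41, SE 0.11, limma adjusted p = 0.00819) made up the positive side. PSMA7 (log2 difference -1.04, SE 0.32, limma adjusted p = 0.0162) and PSMB5 (log2 difference -1.04, SE 0.32, limma adjusted p = 0.0162) were among the rest.

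Under median-of-ratios scaling the median of all genes moved from -0.16 to 0.02 and the split turned to 9 positive and 5 negative. These were 20% and 11.1% of the 45 tested, against 27.2% and 23.5% of all genes. PSMB8, PSMD1, PSMD2, PSMD5, PSMD11, PSME4, PSMG3 and PSMG4 passed under both scalings, and PSMA7, PSMB4, PSMB5, PSMC5, PSMD9, PSMD10, PSME3 and PSMG1 only with the read total. Without H460 ISP-I library 3, 26 genes differed. Within the lines, 5 genes rose in each (PSMC4, PSMC6, PSMD6, PSMD7 and PSMD14), 6 fell in each (PSMA1, PSMB4, PSMB5, PSMD10, PSME1 and PSME3), and 3 moved in opposite directions (PSME4 up in H460, PSMD5 and PSMG1 up in A549). How many of all genes moved so in both lines was not counted. Of all genes tested, 27.6% rose and 41.5% fell in H460, and 30.5% rose and 27.0% fell in A549.

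Before treatment, 14 of 46 proteasome genes were higher in H460 than in A549 (30.4%, against 28.6% of all genes tested) and 5 were lower (10.9%, against 31.6%), with a median log2 difference of 0.07 against -0.03 over all genes. PSMB8 was 2.54 times as high in H460 control as in A549 control (log2 difference 1.20, SE 0.16, limma adjusted p = 0.000242), and PSMD4, a ubiquitin receptor of the cap, 2.04 times (log2 difference 1.02, SE 0.09, limma adjusted p = 1.59e-05). PSMC4 and PSMD8 were lower, at 0.466 and 0.43 times the A549 mean (log2 difference -1.09, SE 0.10, limma adjusted p = 3.36e-05; log2 difference -1.19, SE 0.13, limma adjusted p = 8.10e-05). These 4 genes were the ones beyond 2-fold. Neighbouring genes were counted for each. Within 1 Mb of PSMC4 on chromosome 19, 33 of 41 tested neighbours were lower in H460 and 2 higher, and near PSMD8, on the same chromosome, 23 of 35 were lower and 2 higher. Near PSMD4 on chromosome 1, 35 of 51 neighbours were higher and 6 lower, and near PSMB8 on chromosome 6, 20 of 49 were higher, 8 lower and 21 did not pass. Copy number of these regions was not measured here.

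Genes that work with the proteasome were read from a list of 34 tested genes. In H460, 7 rose (20.6%, against 27.6% of all genes) and 13 fell (38.2%, against 41.5%). Under median-of-ratios scaling 10 rose and 7 fell there, where 35.0% of all genes rose and 32.1% fell. In A549, 14 rose (41.2%, against 30.5%) and 12 fell (35.3%, against 27.0%). Under that scaling 14 rose and 13 fell in A549, where 29.8% of all genes rose and 27.7% fell. NFE2L1, the activator of subunit genes described above, measured 61.3, 67.1 and 72.3 FPKM in the H460 controls and 15.2, 14.3 and 14.1 with ISP-I (log2 change -2.13, SE 0.11, limma adjusted p = 1.44e-06). In A549 it stood at 59, 61.8 and 62.3 FPKM in the A549 controls and 38.9, 36.2 and 38.2 with ISP-I (log2 change -0.68, SE 0.06, limma adjusted p = 5.17e-05). It fell without overlap in both lines, and more in H460 (log2 difference -1.45, SE 0.12, limma adjusted p = 1.05e-06). DDI2, the protease that releases the NFE2L1 protein, had log2 changes of 0.41 in H460, which did not pass (limma adjusted p = 0.0564), and 0.76 in A549 (limma adjusted p = 0.000575). NGLY1, which removes its sugars, rose in H460 (log2 change 0.31, SE 0.12, limma adjusted p = 0.0397). It also rose in A549 (log2 change 0.51, SE 0.11, limma adjusted p = 0.0036).

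The list held 8 shuttle and segregase genes, of which 1 rose and 5 fell in H460 (27.6% and 41.5% of all genes). In A549 2 rose and 4 fell (30.5% and 27.0% of all genes). VCP, the segregase that hands ubiquitin-tagged proteins to the proteasome, fell in H460 (log2 change -0.94, SE 0.13, limma adjusted p = 0.000302) and in A549 (log2 change -0.78, SE 0.07, limma adjusted p = 4.16e-05). The shuttle gene UBQLN1 rose in H460 (log2 change 0.65, limma adjusted p = 0.00386) and in A549 (log2 change 0.38, limma adjusted p = 0.00655). RAD23B rose in A549 (log2 change 0.53, limma adjusted p = 0.00101) and did not pass in H460.

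**Figure D5:**
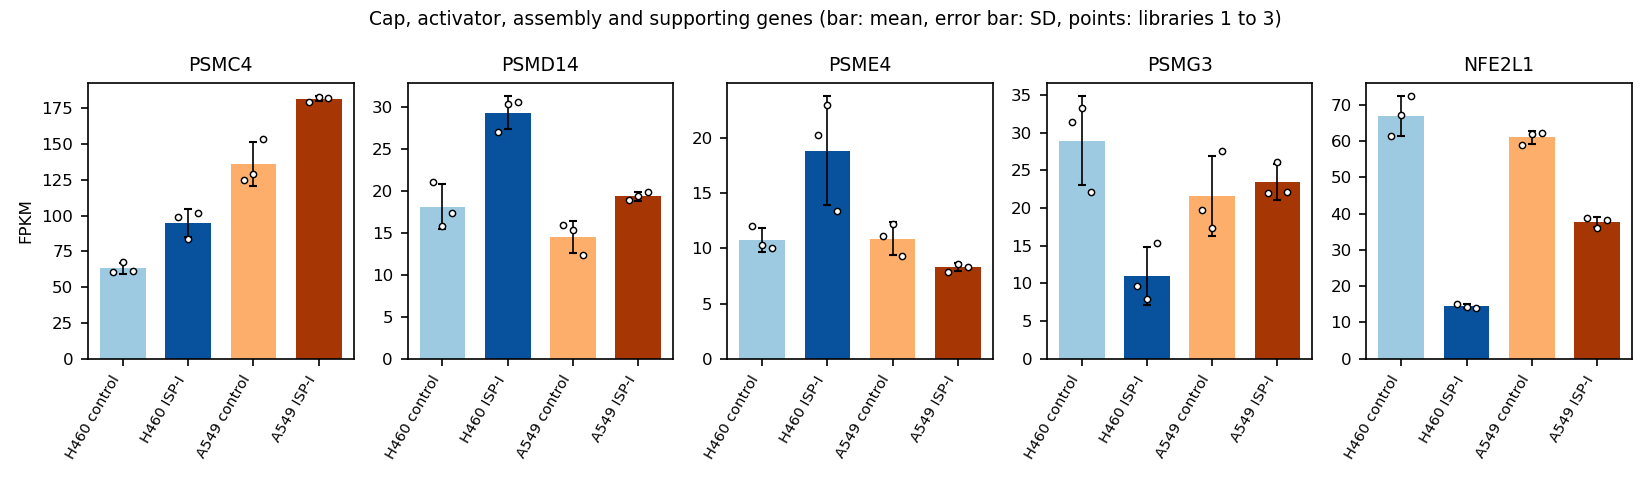
FPKM of PSMC4, PSMD14, PSME4, PSMG3 and NFE2L1 in the 4 groups (bars, mean of 3 libraries; error bars, SD; points, libraries). PSMC4 and PSMD14 rise with ISP-I in both lines, PSME4 rises in H460 and falls in A549, PSMG3 falls in H460 and NFE2L1 falls in both lines.

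Among the assembly factors and subunits whose symbols fall outside the PSM families, 0 of 4 passed in H460 and 3 of 4 rose in A549 (30.5% of all genes rose there). POMP, which matures the new core, had a log2 change of 0.23 in H460 and rose in A549 (log2 change 0.63, SE 0.09, limma adjusted p = 0.000375). ADRM1, a ubiquitin receptor of the cap, had -0.08 in H460 and rose in A549 (log2 change 0.57, SE 0.06, limma adjusted p = 0.000151). PAAF1, a chaperone of the ATPases, also rose there (log2 change 0.41, SE 0.08, limma adjusted p = 0.00242). Of 8 enzymes and cofactors that associate with the proteasome, 4 rose and 2 fell in each line (27.6% and 41.5% of all genes in H460, 30.5% and 27.0% in A549). USP14, a deubiquitinase of the cap, fell in H460 (log2 change -0.69, SE 0.14, limma adjusted p = 0.00228), and its A549 change did not pass (log2 change -0.19, SE 0.08, limma adjusted p = 0.0702). ZFAND5, an activator of the complex, rose in H460 (log2 change 0.77, SE 0.12, limma adjusted p = 0.00041) and fell in A549 (log2 change -0.39, SE 0.09, limma adjusted p = 0.00753). The changes differed (log2 difference 1.16, SE 0.14, limma adjusted p = 3.01e-05). AKIRIN2, which carries proteasomes into the nucleus, rose in both lines, by log2 0.71 (limma adjusted p = 0.00159) and 0.38 (limma adjusted p = 0.00321).

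Of 6 genes of antigen presentation and interferon signalling, 4 fell and 1 rose in H460, and 3 fell and 1 rose in A549, where 41.5% and 27.0% of all genes fell. TAP1, a peptide transporter subunit next to PSMB8 and PSMB9 in the genome, fell in H460 (log2 change -1.20, SE 0.13, limma adjusted p = 4.80e-05) and in A549 (log2 change -0.69, SE 0.08, limma adjusted p = 0.000204). TAP2, its partner, fell in H460 too (log2 change -1.13, SE 0.11, limma adjusted p = 3.13e-05). It also fell in A549 (log2 change -0.35, SE 0.08, limma adjusted p = 0.00819). IRF1, an interferon-response transcription factor known to act on PSMB9 and TAP1, rose in H460 (log2 change 0.66, SE 0.15, limma adjusted p = 0.0038), the line in which PSMB8, PSMB9 and PSMB10 fell. Its level was low, at 0.768, 0.965 and 1.15 FPKM in the H460 controls and 1.76, 1.78 and 2.82 with ISP-I, library 3 being the highest. The A549 change of IRF1 did not pass (log2 change 0.08, SE 0.07, limma adjusted p = 0.361). NLRC5, a transactivator of these genes, rose in A549 (log2 change 0.97, SE 0.09, limma adjusted p = 4.21e-05) and fell in H460 (log2 change -0.48, SE 0.11, limma adjusted p = 0.00483), the latter lost under median-of-ratios scaling.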

How the data were processed

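RNA was sequenced from 3 libraries each of H460 and A549 cells, non-treated or given 10 µM ISP-I for 48 h. Per the methods and labels, paired 150-base reads (TruSeq, NovaSeq) were filtered with FastQC, mapped to hg38 with HISAT2 and counted with HTSeq 0.9.1. The authors deposited FPKM, in which a gene's reads are divided by its listed length and by the library total, with no other scaling between libraries; a further column deposited holds gene length in bases, another unit. Annotation version and strand setting are not given in the sources used here. Multiplied by length, 100% of values came out as whole reads (tolerance 0.05 of a read). A total of 4 lines that were pieces of another cell were left out.

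Genes averaging at least 0.1 FPKM over the libraries compared were tested on log2(FPKM + 1) with limma 3.58.1 (trend, R 4.3.3), per line, for the interaction over 12 libraries and between the untreated lines, with p-values adjusted over all genes tested. A fold change on this scale understates that of low genes. Sums and ratios came from Python 3.11.15, and ratios were compared by exact permutation. The script was tested on simulated data. Genes named with their values were the 6 catalytic beta genes, in each family the passing gene with the largest rise and fall in each line, and the 3 largest differences between the lines in each direction. Coordinates are those of the table (hg38), and promoters are RefSeq's (GRCh38.p14). The proteasome genes, the list of related genes and the marker lists were chosen with earlier results of these data known, and 1 gene of the related list is not reported here. The alternatives were another pseudocount, other filters, median-of-ratios and quantile scaling, voom on recovered reads, stricter thresholds and leaving out each library, and after seeing the data, removal of GC and transcript length trends.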

Additional observations from a re-analysis of the deposited data

Results flagged for a closer look

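For 16 proteasome genes the change after ISP-I differed between H460 and A549 by a test of the difference itself, the interaction term of limma over the 12 libraries. Values are the log2 change in H460 minus that in A549, with the limma adjusted p. The core chaperones PSMG3 (-1.48, adjusted p = 0.00189), PSMG4 (-1.16, adjusted p = 3.02e-05) and PSMG1 (-0.58, adjusted p = 0.00766) were more negative in H460. So were the core genes PSMA7 (-1.04, adjusted p = 0.0162), PSMB5 (-1.04, adjusted p = 0.0162), PSMB8 (-0.98, adjusted p = 0.00446) and PSMB4 (-0.85, adjusted p = 0.0363). Of the cap genes, PSMD2 (-0.89, adjusted p = 0.000607), PSMC5 (-0.44, adjusted p = 0.0148) and the chaperones PSMD5 (-0.97, adjusted p = 4.61e-05), PSMD10 (-0.51, adjusted p = 0.0217) and PSMD9 (-0.25, adjusted p = 0.0465) were more negative, as was the activator PSME3 (-0.53, adjusted p = 0.00558). More positive in H460 were PSME4 (1.08, adjusted p = 0.00185), PSMD1 (0.70, adjusted p = 0.00659) and PSMD11 (0.41, adjusted p = 0.00819). Under median-of-ratios scaling 8 of the 16 no longer passed, and 6 others did: PSMC2, PSMC4, PSMD6, PSMD7, PSMD12 and PSMD14. No formal outlier test was run, since each group has 3 libraries.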

How the results depend on the processing

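Among the genes given with their library values, no change that passed turned its sign under an alternative, while the counts moved with the scaling, the threshold and the libraries used. PSMA2 in H460 went from -0.17 to 0.06 and no longer passed with the transcript length trend removed. In H460, 6 genes rose and 19 fell. With median-of-ratios scaling 13 rose and 12 fell, with voom on those factors 13 rose, and with the transcript length trend removed 11 rose. With a fold change over 2 as a further threshold the counts were 0 and 7. Leaving out a library gave 4 to 7 higher and 13 to 25 lower, the latter without ISP-I library 3. In A549, 12 rose and 9 fell. Quantile normalization and removal of the GC trend each gave 14 lower. At an adjusted p under 0.01 there were 5 higher and 5 lower, and over 2-fold 0 and 0. Leaving out a library gave 5 to 18 higher (7 without control library 2, 6 without ISP-I library 1, 5 without ISP-I library 2, 18 without control library 3) and 5 to 12 lower (5 each without control library 1, ISP-I library 1 or ISP-I library 3). The change differed between the lines for 16 genes, for 10 at 0.01, for 5 over 2-fold and for 13 to 26 without a library (26 without H460 ISP-I library 3). Between the untreated lines 19 differed, 11 at 0.01, 4 over 2-fold and 12 to 24 without a library (12 without H460 control library 1). The cause of these moves was not tested, apart from the stricter thresholds, which lower a count by construction. Shares over all genes are given above for the main fit, its 2-fold threshold within a line and median-of-ratios scaling. They were not counted for the other settings.

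Over the genes named with their values, 44 changes gave the same call with a pseudocount of 0.1, a minimum of 1 FPKM and voom on library totals, while median-of-ratios scaling ended 6 calls and added 5. Depth limits PSMA1, PSMA2, PSMA6, PSMB9, PSMB10, PSMD9 and PSMG4, which had the fewest reads of the tested genes. No paired analysis was possible because the columns carry only the line and treatment and no replicate number that matches the labels.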

Other observations

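The matches that are not proteasome subunits had values of their own. PSMC3IP, the meiotic recombination factor, measured 9.81, 10.2 and 13.4 FPKM in the H460 controls and 3.84, 4.01 and 6.01 with ISP-I (log2 change -1.12, SE 0.18, limma adjusted p = 0.000585), and all treated libraries lay below the controls. In A549 it stood at 8.97, 7.57 and 7.25 FPKM in the A549 controls and 7.64, 6.58 and 6.71 with ISP-I (log2 change -0.16, SE 0.10, limma adjusted p = 0.187). On the opposite strand, MLX covers 57.2% of its transcript, and the strand setting of the counting is not given in the sources used here. PSME3IP1 rose in A549 (log2 change 0.17, SE 0.06, limma adjusted p = 0.0391) and had a log2 change of -0.17 in H460.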
